A study of Mus musculus with 5 samples.

Results

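The lysosome genes described here are 36 of the 47729 genes in the deposited count table, chosen by name from a list of lysosomal enzymes, activators, membrane proteins and regulators, and matched by symbol to their Ensembl identifiers on GRCm38. All 36 were found. The source was right hemisphere tissue of 5-month-old C57BL/6 mice, all male and of an inbred laboratory strain, with no treatment named in the labels, and the 5 libraries form 1 group. No condition was compared with another. Genes were compared with each other within a library, and their spread was compared with that of other genes across the libraries. Samples are called animals here, although the labels leave unsaid whether 1 mouse gave each of them, so p-values speak of how far these libraries vary, some of which could be technical. Library totals ran from 13184234 to 15570064 counts, and counting errors given here take each read as an independent molecule.

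Lysosomes are acidic organelles in which hydrolases break down proteins, lipids and glycans delivered by endocytosis and autophagy. Most of the enzymes are glycoproteins that receive a mannose 6-phosphate tag in the Golgi apparatus and are carried to the lysosome by receptors for it, and heavily glycosylated membrane proteins line the organelle. In the brain, inherited loss of a single one of these enzymes, activators or membrane proteins causes storage disease, often with loss of neurons or of myelin. The transcription factor TFEB switches on many of these genes together through a promoter word known as the CLEAR element, which contains the E-box recognised by its protein family.

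The promoters of these genes were searched for that word and for shorter words within it. The shorter words were present more often than in promoters at large. The full word is already known from promoters of such genes, so these shares are no independent sign of TFEB control, which was not tested. RefSeq promoter windows on GRCm38.p6, each with 250 bases before and 50 bases after a start site, were found for 33 of the 36 genes (38 windows). Ctsb, Ctsh and Asah1 had no entry. The E-box core CACGTG, which reads the same on both strands, was found in 13 of the 33 genes (39.4%). It was found in 8.09% of all 27025 genes with a window and 11.5% of the 11122 genes tested here that have one. The longer word TCACGTG, searched on both strands and containing the core, was found in 11 of 33 (33.3%). The shares were 4.29% of all genes with a window and 6.76% of those tested. The full palindrome of the core with GT before it and AC after it contains both shorter words. It was found in 1 of 33 (Cln3, 3.03%), against 0.370% of all genes with a window and 0.719% of those tested. The windows of the lysosomal genes were richer in G and C (median 57.8% against 52.7%) and in CpG (median observed over expected 0.547 against 0.384), and the part of base composition in these shares was not tested. A match is a description of the letters, and no match says only that they are not in this window.

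Of 21 core words in these windows, 20 lay upstream of the start site and 14 within 100 bases of it. Lamp1, the major glycoprotein of the lysosomal membrane, had the most, with 4 words in the 80 bases before its start. This stretch is shown whole because the words follow each other so closely (GRCm38.p6, chr8:13159081-13159160, plus strand). Capitals mark the core with whichever flanking letters of the full palindrome adjoin it.
Lamp1: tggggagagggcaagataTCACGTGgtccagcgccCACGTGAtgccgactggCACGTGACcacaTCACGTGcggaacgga

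The other 10 genes with TCACGTG are shown by 30 bases around 1 word each, so that the letters next to the core can be compared. They are Cln3 (chr7:126583340-126583369, minus strand), Ctsa (chr2:164833749-164833778, plus), Ctsd (chr7:142387908-142387937, minus), Gla (chrX:134601182-134601211, minus), Mcoln1 (chr8:3500462-3500491, plus), Glb1 (chr9:114401018-114401047, plus), Naglu (chr11:101070009-101070038, plus), Arsa (chr15:89477423-89477452, minus), Sgsh (chr11:119355522-119355551, minus) and Gaa (chr11:119267811-119267840, plus). Each is written along the strand of its gene, with capitals as for Lamp1.
Cln3: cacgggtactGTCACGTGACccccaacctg
Ctsa: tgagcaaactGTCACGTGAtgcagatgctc
Ctsd: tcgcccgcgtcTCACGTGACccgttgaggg
Gla: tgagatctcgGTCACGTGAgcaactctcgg
Mcoln1: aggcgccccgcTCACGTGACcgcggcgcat
Glb1: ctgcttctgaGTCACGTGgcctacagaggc
Naglu: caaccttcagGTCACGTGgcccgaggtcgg
Arsa: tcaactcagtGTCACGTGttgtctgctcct
Sgsh: gggcctgccgtgCACGTGACcgtggggagc
Gaa: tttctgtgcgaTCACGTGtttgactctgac

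Ctsf and Ctsl had the core without either flank. The 11 genes with TCACGTG were not set apart by level: their means ran from 1.69 RPKM (Sgsh) to 152 (Lamp1), with a median of 9.31, and the 22 with a window but without the word ran from 1.54 to 604, with a median of 14.1. RPKM is the read count scaled by gene length in kilobases and by library total, so that levels can be compared between genes.

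**Figure D1:**
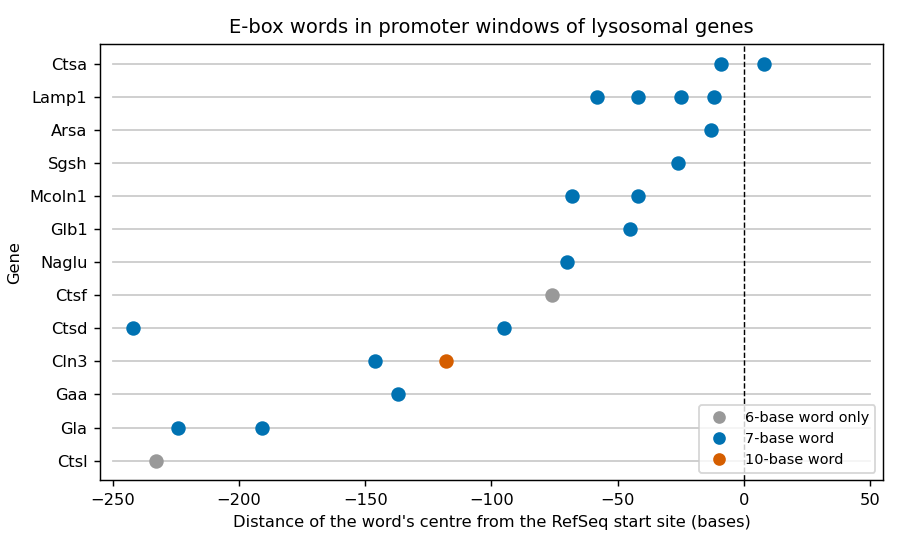
Positions of E-box words in the promoter windows of the 13 lysosomal genes that hold at least 1, plotted as the distance in bases of the word's centre from the RefSeq start site (dashed line). Each dot is 1 word and each grey line 1 window, and Lamp1 holds 4 words between 58 and 12 bases before its start.

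Levels of the 36 genes differed by up to 393-fold, while all of them were detected in every library. The precursor gene Psap was highest at 604 ± 7.23 RPKM and Tfeb lowest at 1.54 ± 0.211 (mean ± SD, n = 5, here and below). Means of at least 100 RPKM were reached by 4 genes (Psap, Lamp1, Ctsd and Ctsb), 17 lay between 10 and 100, and 15 between 1 and 10. The median was 13.5 RPKM, against 5.80 over all 14770 genes tested. Psap alone made up 39.0% of the summed RPKM of the 36 genes, and with Lamp1, Ctsd, Ctsb and Gaa 71.8%. In counts the genes took 0.490% ± 0.00685 of each library, between 0.478% and 0.494%.

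**Figure D2:**
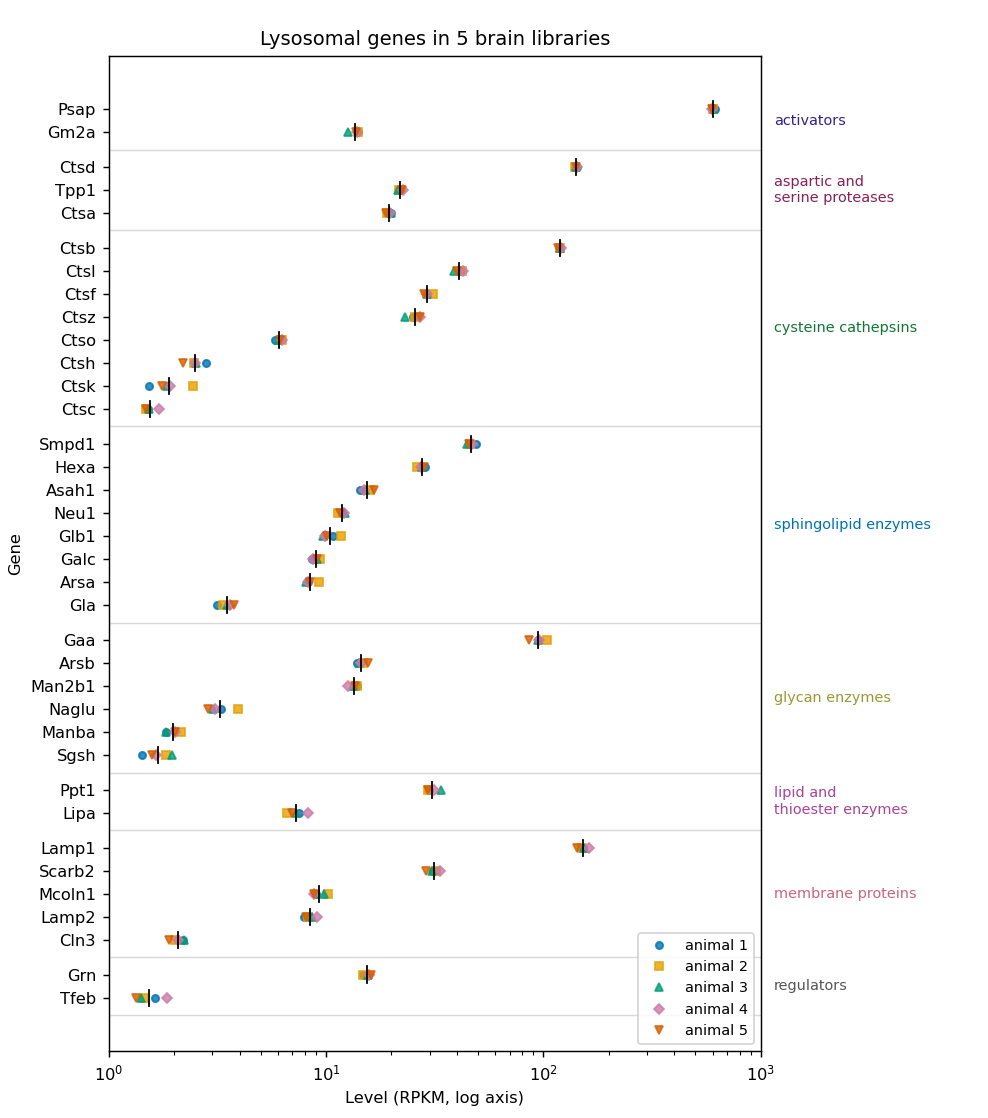
Level of each lysosomal gene in RPKM (log axis) in 5 brain libraries, grouped by role, with 1 symbol per animal and a black bar at the mean. Psap lies near 604 RPKM and Tfeb near 1.54, and the 5 symbols of most genes nearly coincide.

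Activator proteins lift lipids out of membranes so that the hydrolases can reach them. Psap (ENSMUSG00000004207, GRCm38 chromosome 10, 60277627 to 60302597) encodes prosaposin, which is cut into the saposins that assist the breakdown of sphingolipids. It stood at 613, 602, 611, 597 and 598 RPKM in animals 1 to 5. Its place was 19th among the 14770 genes tested. Gm2a, the activator for ganglioside GM2, stood at 14.0, 14.0, 12.6, 13.9 and 13.7 RPKM, with animal 3 below the other animals. The range between animals, taken on counts scaled to library depth by TMM (a scaling factor that evens out composition), was 1.04-fold for Psap and 1.11-fold for Gm2a.

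The aspartic protease gene Ctsd and the serine protease genes Tpp1 and Ctsa had the lowest median range of the 8 roles (1.05-fold), with single ranges of 1.04-fold to 1.06-fold. Ctsd (ENSMUSG00000007891, chromosome 7, 142375911 to 142388038), cathepsin D, stood at 143, 140.2, 142, 143 and 141 RPKM. Tpp1, which removes tripeptides from proteins and is lost in a neuronal ceroid lipofuscinosis, stood at 21.9, 21.6, 21.4, 22.5 and 22.3. Ctsa, the protective protein that holds beta-galactosidase and neuraminidase in a complex, stood at 19.9, 19.1, 19.8, 19.8 and 18.9. Animals 1 and 4 lay above the mean in all 3 genes and animal 2 below it, by at most 0.044 on the log2 scale. Of the words of 50 bases in Ctsd transcripts, 32.2% also occur in the annotated gene Gm49369, which is not a row of the count table.

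The 8 cysteine cathepsins covered a wide span of levels, from Ctsb at 119 ± 1.32 RPKM to Ctsc at 1.55 ± 0.0908. Ctsb (ENSMUSG00000021939, chromosome 14, 63122462 to 63145923), cathepsin B, stood at 119, 119, 119, 121 and 117 in animals 1 to 5. Ctsl, cathepsin L, followed at 41.2, 42.4, 38.9, 42.6 and 39.9. Ctsf stood at 29.3 ± 1.004, the carboxypeptidase gene Ctsz at 25.6 ± 1.62 and Ctso at 6.10 ± 0.180. Ctsh, an aminopeptidase, stood at 2.50 ± 0.218. Ctsc encodes the dipeptidyl peptidase that activates the granule proteases of immune cells. Ctsk, best known from bone-resorbing osteoclasts, had the widest range of the 36 genes (1.54-fold), at 1.53, 2.44, 1.86, 1.91 and 1.76 RPKM. It also had the fewest reads, with a mean count of 41.2, for which counting alone gives a coefficient of variation (CV, the SD as a percentage of the mean) of 15.6%, against 17.7% observed.

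Enzymes of sphingolipid and ganglioside breakdown ran from Smpd1 at 46.3 ± 1.60 RPKM to Gla at 3.49 ± 0.239. Smpd1, acid sphingomyelinase, stood at 48.7, 46.0, 44.4, 46.8 and 45.6. Hexa, which is needed to break down ganglioside GM2 and is lost in Tay-Sachs disease, stood at 28.6, 26.2, 27.6, 27.4 and 28.1. The acid ceramidase gene Asah1 followed at 15.4 ± 0.859, the neuraminidase gene Neu1 at 11.9 ± 0.350 and the beta-galactosidase gene Glb1 at 10.4 ± 0.813. Galc, which degrades the myelin lipid galactosylceramide and is lost in Krabbe disease, stood at 8.99 ± 0.297. Arsa, which removes sulfate from the myelin lipid sulfatide, stood at 8.46 ± 0.473. The X-linked alpha-galactosidase gene Gla, lost in Fabry disease, had the widest range of this group (1.19-fold), at 3.16, 3.37, 3.52, 3.62 and 3.79. Its lowest value was in animal 1 and its highest in animal 5.

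Among the enzymes that degrade glycogen, glycoprotein glycans and glycosaminoglycans, Gaa stood far above the rest. Gaa (ENSMUSG00000025579, chromosome 11, 119267887 to 119285454) encodes acid alpha-glucosidase, which breaks down glycogen and is lost in Pompe disease. It stood at 94.4, 104, 94.5, 95.6 and 86.2 RPKM, highest in animal 2 and lowest in animal 5. Arsb, which removes sulfate from dermatan and chondroitin sulfate, followed at 13.9, 14.7, 14.1, 14.4 and 15.5. The mannosidase genes Man2b1 and Manba stood at 13.4 ± 0.488 and 1.98 ± 0.139. The heparan sulfate enzymes were low: Naglu stood at 3.29, 3.92, 3.02, 3.09 and 2.85, and Sgsh at 1.42, 1.83, 1.96, 1.66 and 1.58. Naglu and Sgsh ranged 1.35-fold and 1.37-fold with mean counts of 123 and 107, and counting alone gives CVs of 9.02% and 9.69% at these counts, against 12.8% and 12.5% observed.

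Ppt1, which removes fatty acids from proteins and is lost in infantile neuronal ceroid lipofuscinosis, stood at 29.9, 29.5, 33.8, 31.4 and 29.5 RPKM, highest in animal 3. Lipa, the acid lipase of cholesteryl esters and triglycerides, stood at 7.53, 6.59, 7.26, 8.22 and 6.95, highest in animal 4 and lowest in animal 2. Their ranges were 1.16-fold and 1.26-fold.

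Of the membrane proteins, Lamp1 (ENSMUSG00000031447, chromosome 8, 13159161 to 13175338) stood at 152, 151, 154, 162 and 143 RPKM in animals 1 to 5. Scarb2, the receptor that carries glucocerebrosidase to the lysosome, followed at 31.1, 32.04, 30.7, 33.6 and 28.8. In both genes animal 4 was highest and animal 5 lowest. Mcoln1, a cation channel that releases lysosomal calcium, stood at 9.31 ± 0.655, and Lamp2, which also serves in chaperone-mediated autophagy, at 8.39 ± 0.458. Cln3, the membrane protein lost in juvenile neuronal ceroid lipofuscinosis, had the widest range of this group (1.18-fold), at 2.20, 2.01, 2.23, 2.08 and 1.90.

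The regulator Tfeb (ENSMUSG00000023990, chromosome 17, 47737030 to 47792419) stood at 1.63, 1.45, 1.404, 1.86 and 1.34 RPKM, a 1.38-fold range with animal 4 highest and animal 5 lowest. Its mean count was 125, for which counting gives a CV of 8.96%, against 13.7% observed. Grn, which encodes progranulin, a secreted and lysosomal protein whose loss causes frontotemporal dementia or, with both copies lost, lipofuscinosis, stood at 14.9, 14.8, 15.7, 15.8 and 16.02. Grn ranged 1.10-fold.

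Lengths and overlaps bear on these levels. For 6 genes the union of exons in the GENCODE M21 annotation exceeded by more than 1.5 times the length implied by the deposited tables, and with the union the mean became 12.5 RPKM for Ctsl, 11.5 for Ctsf, 2.31 for Galc, 9.60 for Arsb, 7.23 for Man2b1 and 3.20 for Lipa. The strand setting is not given in the sources used here, so reads from a gene and an overlapping gene on the other strand cannot be told apart. The largest such overlaps were 32.3% of the exons of Arsb (with Gm26527, mean count 0.0) and 26.85% of those of Ctsl (with Gm47123, not a row of the count table). Next came 21.6% for Sgsh (955 bases, with Card14, mean count 5.60) and 18.75% for Arsa (with C230037L18Rik, mean count 32.2). Others include 12.8% for Ctsb (774 bases, with Fdft1) and 12.8% for Hexa (255 bases, with Tmem202). Ctsa had 10.5% (495 bases, with Pltp) and Ppt1 3.51% (129 bases, with the abundant gene Cap1).

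The CV between animals was under 10% in all but 4 of these genes (Ctsk, Tfeb, Naglu and Sgsh), and none of the 36 passed a test for more or less spread than genes of like abundance. The spread of each gene, edgeR's quasi-dispersion, was divided by its trend over abundance and tested in each tail against an F distribution with Benjamini-Hochberg adjustment over 14770 genes. Of the 36 genes, 0 varied more than the trend, where 0.305% of all genes tested (45 genes) did. The smallest adjusted p was 0.961, for Gaa, whose lowest of 5 values lay in animal 5. At an unadjusted p under 0.05, 0 of 36 varied more (5.43% of all genes), and 3 (Ctsb, Ctsd and Ctso) varied less (5.00% of all genes). After adjustment 0 of 36 varied less (0% of all genes). DESeq2 called 0 of the 36 as dispersion outliers, and limma on log2 RPKM called 0 in either tail.

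In size, the median range between animals was 1.14-fold, against 1.19-fold over all genes tested. It was under 1.2-fold in 30 of the 36 genes and in 53.4% of all genes tested, whose median level is lower. Relative to the abundance trend, 24 of 36 genes lay below it, against 8367 of 14770, with a median log2 ratio of -0.76 against -0.19. Ctsb had the lowest ratio of the 36 (log2 -2.92), then Ctsd (-2.67), Ctso (-2.67), Psap (-2.45), Galc (-2.28) and Tpp1 (-2.15). These 6 lay at least 4-fold below the trend (16.7%), as did 9.40% of all genes tested. For Ctsb the observed CV was 1.10% and counting alone gives 1.11%. For Psap, with a mean count of 23618, it was 1.196% against 0.651%. In Ctsd, Ctso, Galc and Tpp1 the observed CV also lay below counting error, for Ctso at 2.95% against 4.74%. This held for 13 of the 36 genes, Ctsb among them. Whether such genes are steadier between animals, apart from counting error, was not tested.

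The groups, some of only 2 genes, differed in where they lay. All 3 aspartic and serine proteases, 7 of the 8 cysteine cathepsins and 7 of the 8 sphingolipid enzymes had less spread than the trend, whereas 4 of the 5 membrane proteins and both lipid and thioester enzymes had more. Median log2 ratios were -2.15 for the aspartic and serine proteases, -1.23 for the cysteine cathepsins and -0.84 for the sphingolipid enzymes. They were -0.25 for the glycan enzymes and 0.53 for the membrane proteins. For the groups of 2 genes they were -1.60 (activators), 0.76 (lipid and thioester enzymes) and -0.038 (regulators). The 18 other lysosomal membrane proteins described below went the other way from these 5, with 13 below the trend and a median of -0.43. Of all genes tested, 56.6% lay below the trend. The difference between groups was not tested. Gaa (log2 1.29) and Ppt1 (0.93) had the highest ratios. Gaa was also the gene whose CV most exceeded counting error, at 6.62% against 1.24% at a mean count of 6484. The 11 genes with TCACGTG in their promoter window had a median of 0.13 and the 22 without it -0.87, given as a description.

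**Figure D3:**
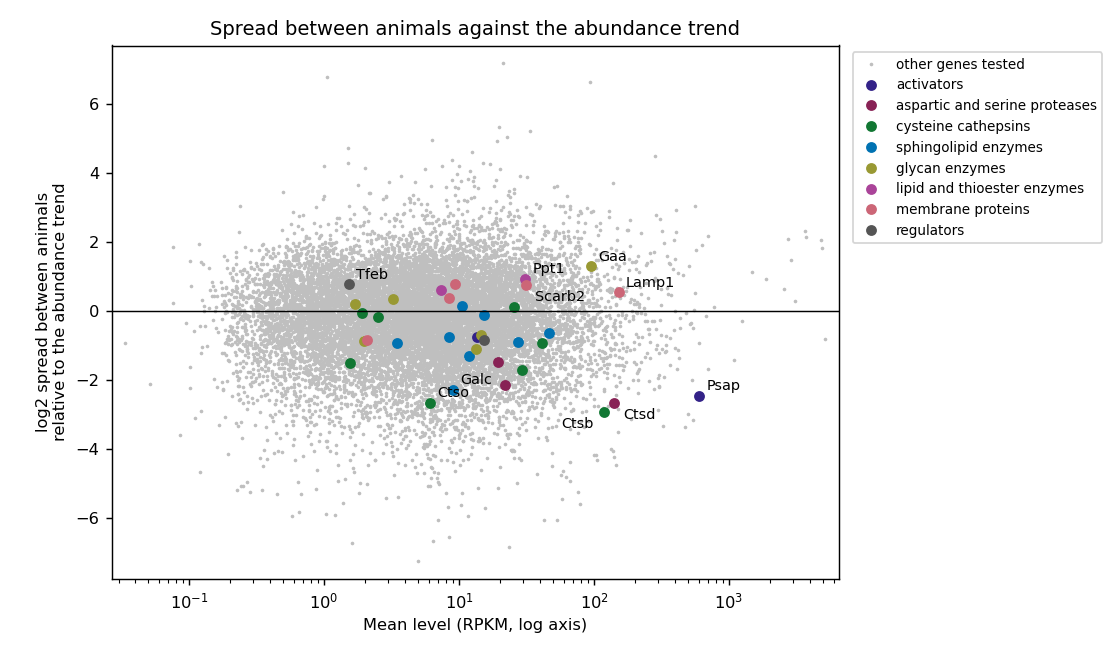
Spread between animals relative to the abundance trend (log2) against mean RPKM (log axis), with 1 dot per gene tested: grey for the other genes and coloured by role for the 36 lysosomal genes. Ctsb, Ctsd and Psap lie at high levels and well below 0, the trend, and Gaa lies above it at 1.29.

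For the group as a whole, mean deviations were no larger than 0.033 on the log2 scale in any animal, and differences between animals were not tested. The mean log2 deviation of the 36 genes from their own means was -0.0084, 0.015, -0.0014, 0.028 and -0.033 in animals 1 to 5. Animal 4 was highest for 10 of the 36 genes (20.9% of all genes tested) and lowest for 2 (20.1%). Animal 5 was lowest for 10 (23.0%) and highest for 5 (21.9%). By group, the membrane proteins lay at 0.046 in animal 4 and -0.094 in animal 5, and the glycan enzymes at 0.10 in animal 2.

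Markers of other cell types also differed between animals. All 8 oligodendrocyte markers, Mbp among them, were highest in animal 4 (mean log2 deviation 0.20), where their summed level was 1156 RPKM against 946 to 987 in the other animals, and 5 of 8 astrocyte markers were highest there as well. In that animal 22 of the 36 lysosomal genes lay above their own mean, as did 50.9% of all genes tested. Only Mcoln1 and Man2b1 were lowest there. Of the membrane proteins, Lamp1, Lamp2 and Scarb2 were highest there, with log2 deviations of 0.095, 0.11 and 0.11, Cln3 lay at its mean (-0.00060) and Mcoln1 was lowest there (-0.082). The myelin lipid enzymes Galc and Arsa lay at -0.036 and -0.033, and Man2b1 at -0.081. Tfeb (0.28), Lipa (0.17) and Ctsc (0.14) were highest in animal 4. The 10 microglia markers, led by C1qb and C1qa, summed to 153 to 163 RPKM, and the 8 neuron markers, led by Slc17a7 and Snap25, to 1439 to 1557. No marker on these lists was at 0 in any library. Border macrophage markers, all under 2 RPKM, had mean deviations of 0.21 in animal 3 and -0.23 in animal 4, and meningeal fibroblast markers of 0.14 in animal 4 and -0.15 in animals 2 and 3. Long nuclear RNAs, listed as a sign of RNA quality, had their highest mean in animal 2 (0.18). Blood markers, which are 5 red blood cell genes with S100a8 and S100a9, differed most between animals. Their summed level was 64.1 to 238 RPKM, highest in animal 3. The part of these in the values of the lysosomal genes was not tested, and in whole tissue fewer cells of a type and less RNA per cell cannot be told apart.

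**Figure D4:**
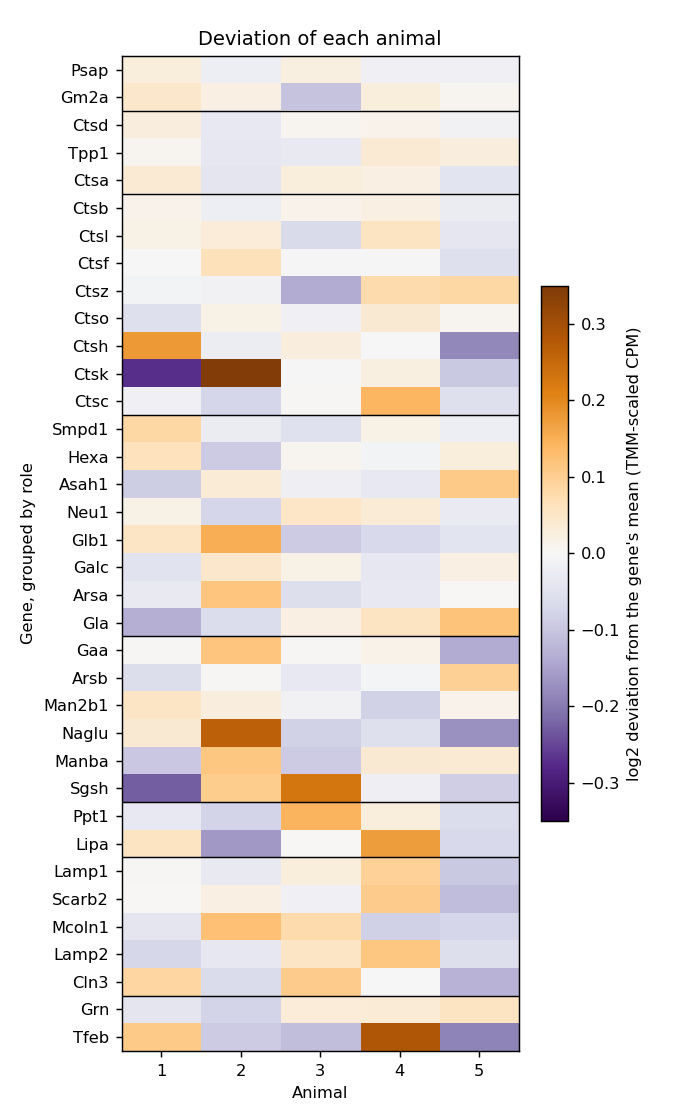
Deviation of each animal (columns) from the mean of each lysosomal gene (rows, grouped by role), in log2 of TMM-scaled CPM, from purple (below the mean) to orange (above). The strongest colours belong to genes with few reads, such as Ctsk and Tfeb, and the rows of Psap, Ctsd and Ctsb are nearly white.

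The pairs of genes compared mostly kept 1 order of level, while the size of many ratios rests on the gene length used. Whether genes without linked tasks keep 1 order as often was not tested, so the order is given as a description only. Among 24 pairs, compared inside every animal as log2 ratios of RPKM with 0.1 added, 23 had the same order in all 5. With 5 animals an exact two-sided sign-flip test cannot go below p = 0.0625, which each of these 23 pairs reached (adjusted over the 24 pairs, 0.0652), so no pair can pass 0.05. The ratios that follow are given by their size and spread.

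Partners in a complex and activators were not at equal levels. Hexa exceeded the activator gene Gm2a by 2.02-fold (log2 1.012 ± 0.082), an order that turned on CPM, which leaves gene length out (log2 -0.13). Of the 3 genes of the beta-galactosidase complex, Ctsa exceeded Glb1 by 1.86-fold and Neu1 by 1.64-fold, the latter with a log2 SD of 0.023. Glb1 against Neu1 was the only pair of the 24 without a fixed order, with Glb1 higher in 1 of 5 animals (log2 ratio -0.18 ± 0.14, exact p = 0.125). Psap exceeded the enzyme genes whose work saposins assist, Galc by 66.5-fold (251-fold with the exon union of Galc) and Asah1 by 39.2-fold. It exceeded Grn, whose product travels with prosaposin, by 39.0-fold.

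Among the proteases, Ctsd exceeded Ctsb by 1.19-fold, a small ratio that varied little (log2 0.25 ± 0.012). Ctsb exceeded Ctsl by 2.90-fold, Ctsf exceeded Ctsh by 11.3-fold, Ctsz exceeded Ctsc by 15.6-fold and Ctso exceeded Ctsk by 3.13-fold. Cst3, the secreted inhibitor of cysteine cathepsins, stood at 695 ± 11.9 RPKM and exceeded Ctsb by 5.83-fold. Ppt1 exceeded Tpp1 by 1.401-fold. The order of Ctsd and Ctsb rests on gene length: on CPM (counts scaled by library total only) the log2 ratio was -0.66, since the length in the files is 2519 bases for Ctsd and 4739 for Ctsb.

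Among the lipid and glycan enzymes, Smpd1 exceeded Asah1 (log2 ratio of Asah1 over Smpd1 -1.59 ± 0.12) and Arsb exceeded Arsa (Arsa over Arsb -0.77 ± 0.076). Man2b1 exceeded Manba by 6.52-fold and Naglu exceeded Sgsh by 1.86-fold. Galc exceeded Gla by 2.53-fold, an order that turned (log2 -0.57) with the longer exon union of Galc. Exon unions also moved 5 other ratios by over 1.5 times, Psap over Galc among them: the log2 ratio became 2.90 for Ctsb over Ctsl, 2.16 for Ctsf over Ctsh, 1.82 for Man2b1 over Manba and -0.18 for Arsa over Arsb. On the membrane, Lamp1 exceeded Lamp2 by 17.9-fold (log2 4.17 ± 0.044), Scarb2 exceeded Lamp2 by 3.69-fold, and Mcoln1 lay above Cln3 (log2 of Cln3 over Mcoln1 -2.11 ± 0.12). The length of Lamp2 in the files, 9552 bases, is the longest of the 36 genes. Tfe3, the other E-box factor of the family compared, exceeded Tfeb by 2.88-fold, least in animal 4. On CPM 14 of the 24 ratios moved by over 1.5 times. Besides the turned orders of Ctsd and Ctsb and of Hexa and Gm2a, the log2 ratio became 2.10 for Lamp1 over Lamp2, 0.64 for Cst3 over Ctsb, 2.03 for Ctsz over Ctsc, 3.41 for Ctso over Ctsk, 2.80 for Ctsb over Ctsl and 2.36 for Ctsf over Ctsh. It became 1.88 for Ctsa over Glb1, -0.82 for Glb1 over Neu1, 2.07 for Man2b1 over Manba, 0.20 for Naglu over Sgsh, 1.29 for Scarb2 over Lamp2 and 2.28 for Tfe3 over Tfeb.

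**Figure D5:**
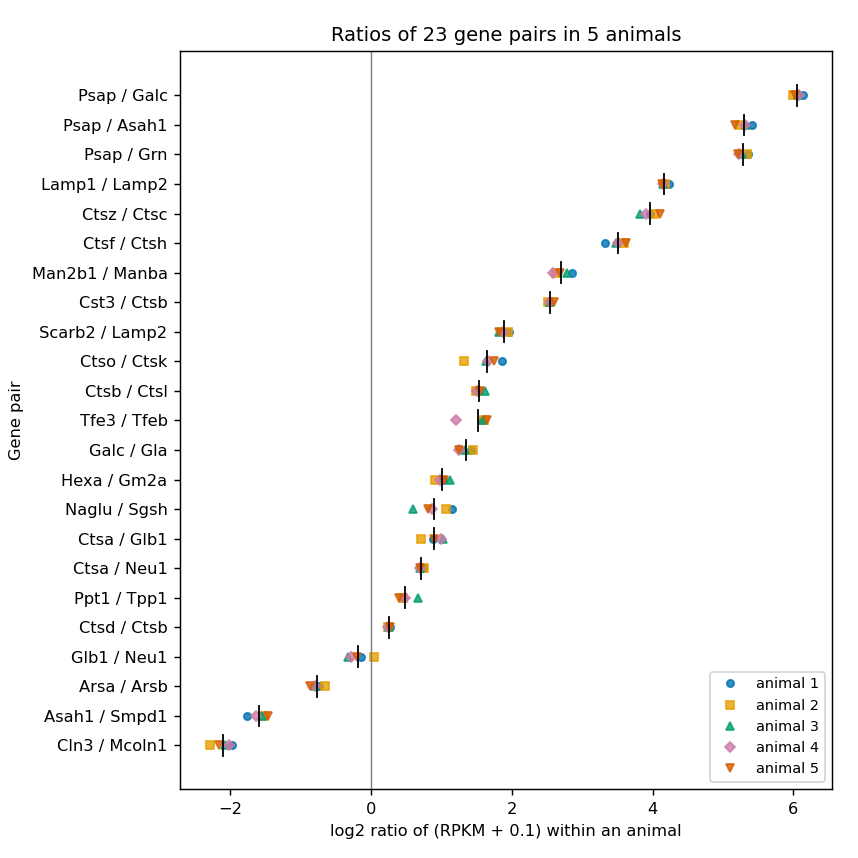
Log2 ratio of RPKM plus 0.1 within each animal for 23 of the 24 gene pairs, 1 symbol per animal and a black bar at the mean, with a line at equal levels. Glb1 over Neu1 is the pair that crosses the line, and Psap over Galc lies highest at 6.06.

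Other genes of the lysosome, fixed as 6 lists of 88 genes of which 87 were tested, were examined in the same way. By edgeR's quasi-likelihood dispersions 0 of 87 varied more than the trend after adjustment (0.305% of all genes) and 2 at an unadjusted p under 0.05 (5.43% of all genes), Atp6v0c and Fnip1, while DESeq2 and limma called 0. With no filter on low counts edgeR called 1, Atp6v0c (adjusted p = 0.00641). The 18 subunits of the V-ATPase, the pump that acidifies the lysosome, had a median of 94.9 RPKM, led by Atp6v1d (162 ± 4.56) and Atp6v0e2 (146 ± 5.74). Of these 18, 15 lay below the abundance trend, as did 56.6% of all genes tested, a share that also stands beside the counts for the other lists. The 20 other hydrolases had a median of 10.8 RPKM, led by the iduronate sulfatase gene Ids (103 ± 2.03) and the asparagine endopeptidase gene Lgmn (49.2 ± 2.09), and 12 lay below the trend. The 18 other membrane proteins had a median of 8.16, led by Laptm4a (116 ± 1.44) and Laptm4b (42.4 ± 2.22), with 13 below the trend.

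The carriers and controls of the pathway were measured as well. Of 11 sorting genes, which include the mannose 6-phosphate receptors, the sortilin gene Sort1 (83.9 ± 3.001 RPKM) and the retromer gene Vps35 (57.6 ± 2.37) were highest, and 6 lay below the trend. Of 17 genes that control TFEB at the lysosome or belong to its family, the Rag GTPase genes Rraga (72.3 ± 1.69) and Rragb (29.7 ± 1.91) were highest, and 11 lay below the trend. Of the 4 cathepsin inhibitors, 3 were tested, led by Cst3 and by Cstb (30.03 ± 2.94).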

How the data were processed

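An Illumina mRNA kit made the 5 libraries, as the labels' protocols say. The submitters' processing notes name the tools CASAVA 1.7, STAR 2.4.1d, and for counting featureCounts 1.4.6-p4, and the build GRCm38. The sources used here do not give the annotation release, the strand setting or the treatment of reads with several matches. The deposited counts are whole numbers per gene, not normalized. The deposited RPKM were made by the authors from these counts. When successive entries were divided by the 5 library totals in rotation, 100% of 117232 nonzero RPKM were recovered (tolerance 0.0011 plus a relative 0.0002), and 24.1% with each library's own total, so RPKM were recomputed from the counts with own totals and the recovered gene lengths.

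Symbols for 47310 genes and positions came from GENCODE M21. The spread test used edgeR 4.0.16 under R 4.3.3 (genes kept by filterByExpr, TMM, robust glmQLFit with legacy settings, intercept only; 4 residual and 15.3 prior degrees of freedom; adjusted p threshold 0.05), a test checked on simulated counts. Ranges and deviations use log2 CPM with a prior count of 2. Alternatives used DESeq2 1.42.0, limma 3.58.1, other scalings, filters, pseudocounts and lengths, and 4 of 5 animals. Sequence shared with other genes was measured in words of 50 bases taken every 5 bases. The members, lists and pairs were chosen with earlier results of these data known. All members are accounted for; values in every animal are given for the 2 most abundant and the widest-ranging gene of each role, and of each list the 2 most abundant genes and those called are named. Of other cell type lists, endothelial and mural cells, border macrophages, choroid plexus and meningeal fibroblasts summed to 140, 5.23, 495 and 430 RPKM on average, led by Vtn and Slc2a1, Pf4 and Mrc1, Ttr and Clic6, and Ptgds and Dcn. Slc2a1 and 5 red blood cell genes, led by Hbb-bs and Hbb-bt, were called. Promoter sequences are RefSeq's for GRCm38.p6. Table columns that belong to no sample numbered 0. Of the pairs, 1 counted in the totals is not reported here.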

Additional observations from a re-analysis of the deposited data

Results flagged for a closer look

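Of 60 sets of 5 values examined (36 gene levels and 24 pair ratios), 3 held a value set apart from the other 4 by Dixon's gap test, and chance marks about 5% of such sets. Gm2a was low in animal 3, at 12.6 RPKM against 13.7 to 14.0. Ctsc was high in animal 4, at 1.703 RPKM against 1.48 to 1.54. Its mean count was 128, for which counting alone gives a CV of 8.83%, against 5.87% observed. The log2 ratio of Tfe3 over Tfeb was low in animal 4, at 1.199, where Tfeb was highest (1.86 RPKM) and the oligodendrocyte markers were highest too, and the part of those in it was not tested.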

How the results depend on the processing

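The count of lysosomal genes with more or less spread than the trend was 0 in the 12 alternatives for more and the 11 for less, among them each fit without 1 animal, and the smallest adjusted p of any of the 36 genes was 0.877 (Gaa, without animal 1). Of the 87 other lysosomal genes, 1 was called with no filter on low counts (Atp6v0c, adjusted p 0.00641) and 0 in the other 11 alternatives. The number of pairs with 1 order was 23 to 24 of 24 in all 11 alternatives, and 23 to 24 without any 1 animal, with 24 without animal 2. Of the alternative pair ratios 237 kept their sign and 3 turned: on CPM without gene length, Ctsd over Ctsb had a log2 ratio of -0.66 and Hexa over Gm2a -0.13, and with exon unions Galc over Gla had -0.57. In these, only the length changed. Of the alternative mean levels 275 stayed within 1 SD and 13 did not, all of these with exon unions. No pairing of samples between conditions was possible because the samples form 1 group. Depth limits the genes with few reads: counting alone gives a CV of 15.6% for Ctsk, 9.69% for Sgsh, 9.02% for Naglu and 8.96% for Tfeb.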

Other observations

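Some lysosomal genes that lie near each other differed in level. Whether they differ less than genes further apart was not tested. Gaa and Sgsh lie 58.0 kb apart on chromosome 11, at 94.9 and 1.69 RPKM, and Smpd1 and Tpp1 lie 186.4 kb apart on chromosome 7, at 46.3 and 21.9. Within the V-ATPase, Atp6v0c, the proteolipid of the membrane ring, had the widest range of the 18 subunits (1.37-fold), with 16.8, 12.5, 15.2, 15.8 and 12.5 RPKM in animals 1 to 5 (edgeR quasi-likelihood test, adjusted p = 0.266), and was low in animals 2 and 5.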
